A study of Mus musculus with 24 samples.

Results

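The 6 genes described here belong to the early and primed epiblast and were followed across maps of H3K4 methylation. They are the transcription factor genes Otx2, Pou3f1, Sox3, Zic2 and Zic5, and the growth factor gene Fgf5. They were chosen by name, as 6 of the 21883 protein-coding genes of the annotation, and placed at their RefSeq coordinates on GRCm38 (mm10). For each gene, called peaks were counted over the gene span, within 2500 bp and within 20000 bp of it, in 16 peak lists. The lists came from CUT&RUN, in which a nuclease tethered to an antibody cuts chromatin and the released fragments are sequenced. The antibodies recognised H3K4me1 or H3K4me2. The cells were mouse embryonic stem (ES) cells, cultured with LIF on Matrigel, and day 6 embryoid bodies (EB), which are aggregates of differentiating ES cells grown in serum. Both stages were wild type or Prdm16 KO, all on a C57BL/6 background. PRDM16, the product of the gene knocked out, is a transcriptional regulator with zinc fingers and a PR domain. Each combination of mark, stage and genotype had 2 libraries, so a mark had 4 ES and 4 EB libraries. The labels describe neither the KO allele nor the number of clones. Nor do they state whether paired libraries of a group were grown as separate cultures. The p-values therefore refer to the spread among these libraries alone, and that spread may be technical.

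When ES cells leave the naive state they pass through an epiblast-like state, in which naive factors are switched off and a new set of transcription factors takes over. OTX2 is a homeodomain factor that redirects OCT4 to new enhancers at this transition, and POU3F1 (OCT6) is a POU factor that appears with it. FGF5 is a secreted fibroblast growth factor whose transcript is a standard marker of the primed epiblast. SOX3 is a SoxB1 factor of the epiblast and neural plate, and ZIC2 and ZIC5 are zinc finger factors encoded by a divergent gene pair. H3K4me1 is typical of enhancers, whether active or primed, while H3K4me2 covers both enhancers and promoters.

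Every gene of the set had at least 1 called peak within 2500 bp in the lists, as did 76.1% of all genes. At Zic2 this was an H3K4me1 peak in KO ES replicate 1 alone. The 6 genes differed in where and when their peaks were called. Fgf5 had an H3K4me2 peak over its start in all 8 libraries and had a downstream H3K4me2 site called in EB alone. In wild type, Otx2, Pou3f1 and Sox3 had H3K4me2 peaks within 2500 bp in both ES libraries and in neither EB library. Zic2 and Zic5 had none within 2500 bp in any H3K4me2 library, and their H3K4me2 peaks lay farther out. In KO EB, peaks at Otx2 and Pou3f1 were called in both libraries.

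The lists set limits on these statements. A list holds chromosome, start, end and the authors' own score, and no read totals, so sequencing depth is unknown. The number of peaks was 13818 to 32874 for H3K4me2 and 5990 to 15435 for H3K4me1. Covered length moved with both stage and genotype: H3K4me2 covered 65.5 and 59.2 Mb in wild-type and 78.3 and 81 Mb in KO ES cells, against 47.7 and 62.6 Mb in wild-type and 39.1 and 39.2 Mb in KO EB. For H3K4me1 it was 35.4 and 32.7 Mb and 35.7 and 37.1 Mb in ES cells, and 31.3 and 26.2 Mb in wild-type and 17.5 and 13.1 Mb in KO EB. The part of these totals in the differences below was examined by scaling and by cutting lists to equal length. A missing peak was not read as a missing mark, since Nanog, a defining naive gene, had no H3K4me2 peak within 2500 bp in any ES library. PRDM16 had 0 peaks within 20000 bp of the 6 genes in its 8 lists, KO lists included. Those lists held only 146 to 586 peaks, covering 0.192 to 0.364 Mb. The share of all genes without a PRDM16 peak was not computed, so nothing about the 6 genes is read from this count. The files do not check the KO labels. Of the 16 lists, 14 carry the library series 329-BZ in their titles, and H3K4me2 KO ES replicate 2 and wild-type EB replicate 2 carry 400-JX.

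RefSeq promoter sequences (GRCm38.p6, 250 bases before to 50 after a start) were listed for 3 of the 6 genes: Fgf5 with 1 start, Otx2 with 4 and Zic5 with 1. They are shown because the data separate them: the Fgf5 promoter lay under an H3K4me2 peak in all 8 libraries, as did 29.7% of 21262 promoters, while the Otx2 and Zic5 promoters lay under no peak of either mark in the 16 libraries, as did 34.8%. Capitals mark matches to 5 motifs, searched on both strands. The TATA box was searched as TATAAA. The GC box, bound by factors of the SP family, was searched as GGGCGG. The site type of OTX homeodomain factors was searched as TAATCC, the octamer bound by POU factors as ATGCAAAT, and the site type of SOX and TCF factors as ACAAAG. A match on the other strand appears as its reverse complement, and no matches printed here overlap.
Fgf5 promoter, chr5:98253934-98254233, plus strand: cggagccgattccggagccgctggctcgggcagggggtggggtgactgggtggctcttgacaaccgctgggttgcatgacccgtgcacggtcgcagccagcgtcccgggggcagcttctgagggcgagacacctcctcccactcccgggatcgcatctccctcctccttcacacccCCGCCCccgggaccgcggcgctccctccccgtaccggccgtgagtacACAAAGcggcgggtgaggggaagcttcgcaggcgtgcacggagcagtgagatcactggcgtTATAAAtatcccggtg
Otx2 promoter of its outermost start, chr14:48667595-48667894, minus strand: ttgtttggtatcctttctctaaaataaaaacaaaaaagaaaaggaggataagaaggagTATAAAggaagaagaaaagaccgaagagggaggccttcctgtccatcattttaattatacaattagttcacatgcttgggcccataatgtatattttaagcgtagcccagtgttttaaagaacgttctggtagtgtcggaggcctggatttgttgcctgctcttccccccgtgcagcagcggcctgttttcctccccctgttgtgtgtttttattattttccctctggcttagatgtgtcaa
Otx2 promoter of an inner start, chr14:48665060-48665359, minus strand: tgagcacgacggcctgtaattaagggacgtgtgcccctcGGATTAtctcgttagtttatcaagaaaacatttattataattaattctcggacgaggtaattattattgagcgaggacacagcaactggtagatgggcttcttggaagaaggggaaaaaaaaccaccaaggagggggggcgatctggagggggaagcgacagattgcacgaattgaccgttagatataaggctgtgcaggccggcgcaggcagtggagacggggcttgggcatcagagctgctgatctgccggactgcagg
Zic5 promoter, chr14:122465609-122465908, minus strand: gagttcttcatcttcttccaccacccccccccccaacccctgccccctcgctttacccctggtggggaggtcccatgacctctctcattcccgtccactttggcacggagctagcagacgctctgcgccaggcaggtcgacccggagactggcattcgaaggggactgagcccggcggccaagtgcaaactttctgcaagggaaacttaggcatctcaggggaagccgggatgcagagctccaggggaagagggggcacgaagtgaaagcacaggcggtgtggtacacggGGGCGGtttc
The Fgf5 promoter had 68.3% GC and 29 CpG, more CpG than 82.8% of promoters. It holds the TATA box letters, the GC box and the SOX or TCF type motif, which 12.6%, 46.2% and 16.8% of all promoters hold. The 2 Otx2 promoters printed had 6 and 16 CpG, the other 2 had 8 and 11, and the Zic5 promoter had 15, beside a median of 13 over all promoters, 22 over those in all 8 H3K4me2 lists and 3 over those in none of the 16 lists. Thus the Zic5 promoter and 1 of the 4 Otx2 promoters had CpG counts above the median and lay under no called peak. The TATA box letters of the outermost Otx2 promoter and the OTX type motif of the inner one, printed there as its reverse complement, occur in 12.6% and 6.42% of promoters. None of the 6 listed promoters holds the octamer, which 1.66% hold. A match is a description of these letters and not of binding.

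Peaks of the 16 lists were merged where they overlapped, which gave 59758 sites in the genome and 16 in the windows of the 6 genes. Of these 16, 2 held H3K4me2 alone, 5 held H3K4me1 alone and 9 held both. The values below are the peaks at these sites, library by library, and the covered length, the number of kb within 20000 bp of the gene span that lie under a peak.

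**Figure D1:**
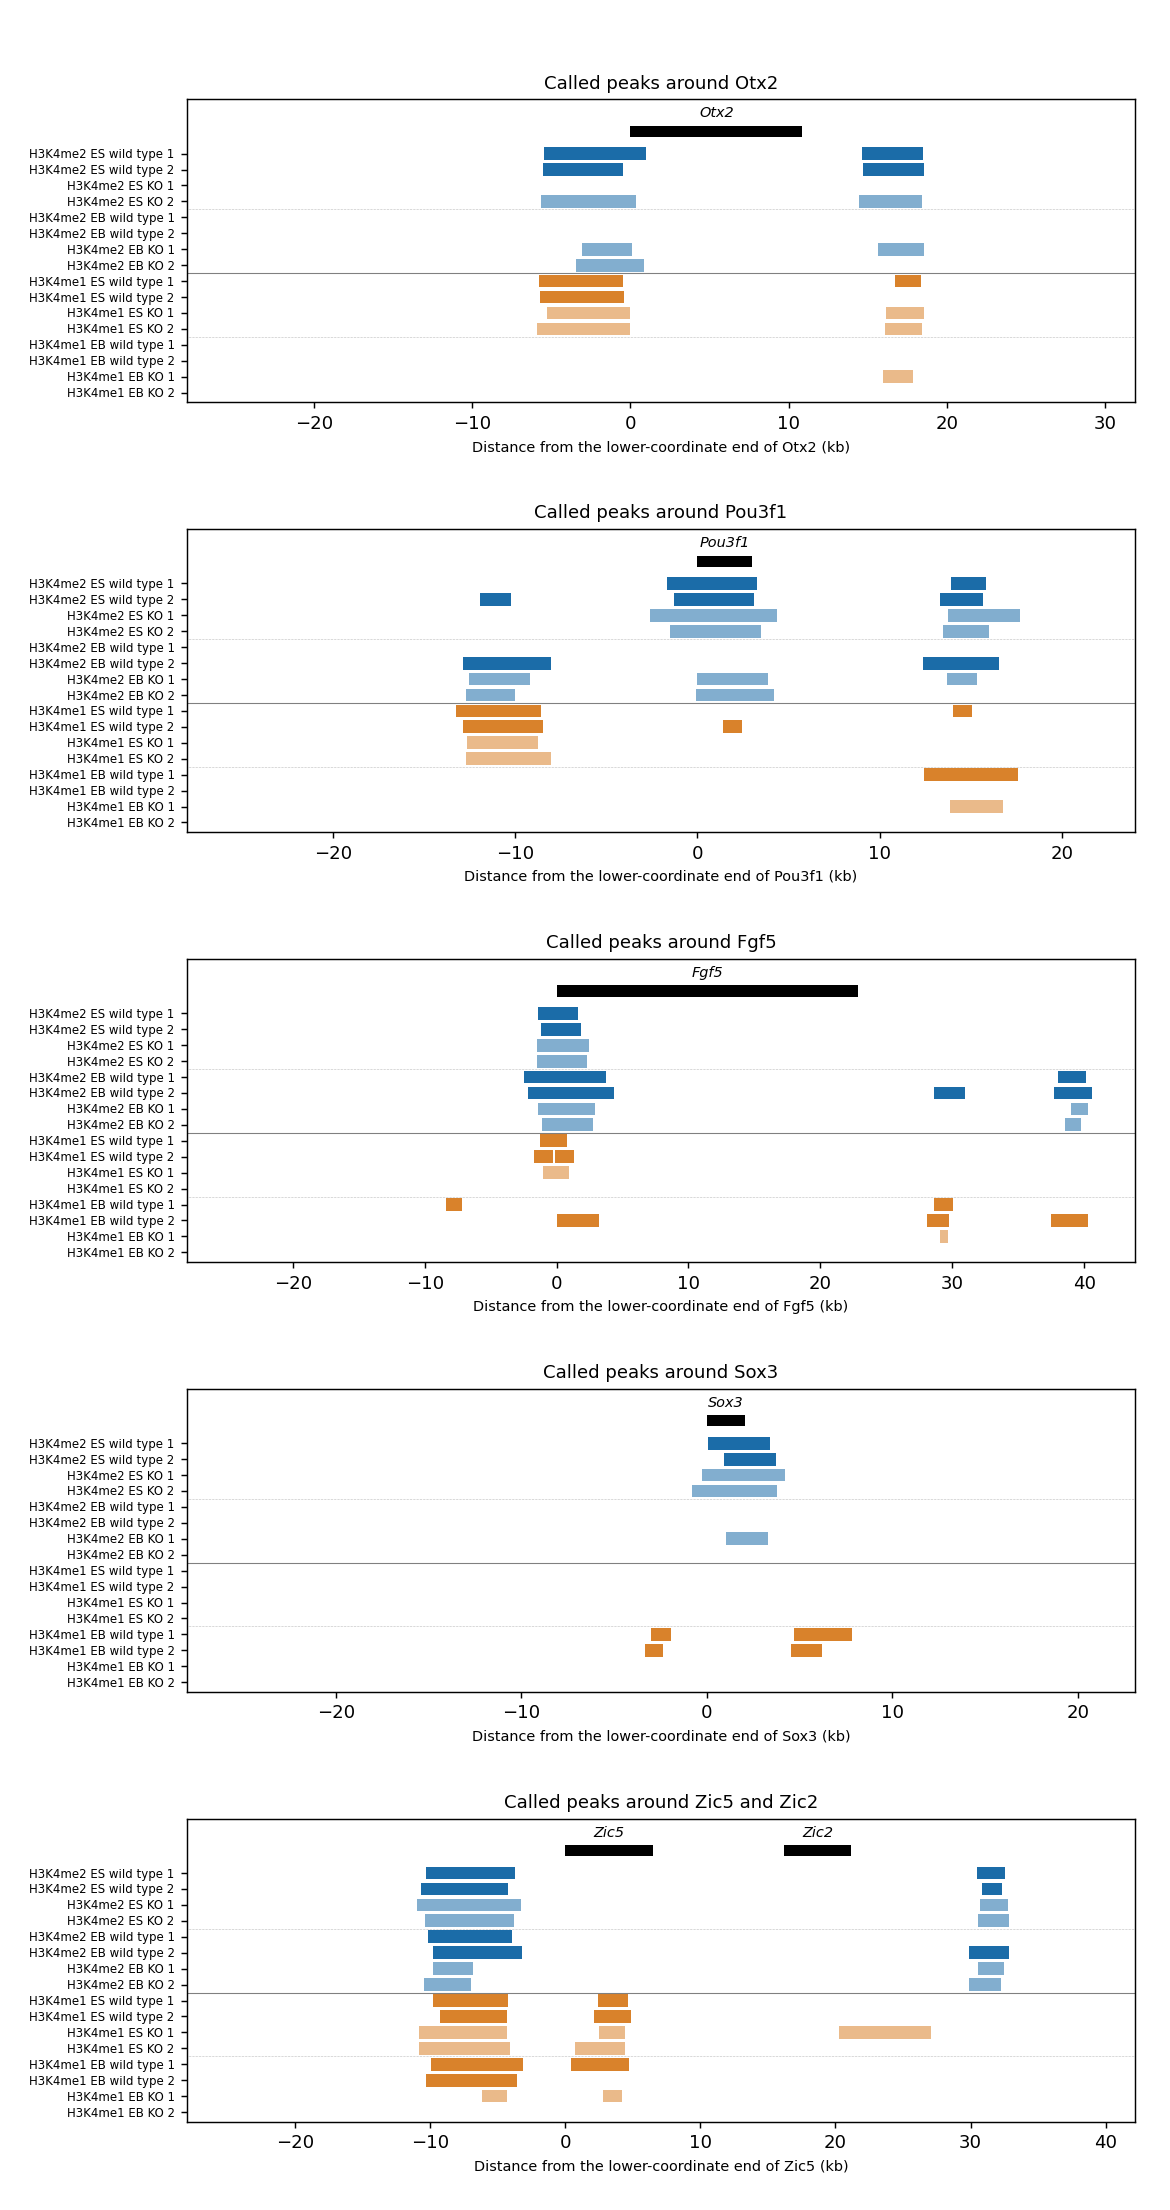
Called peaks around the 6 genes in the 16 libraries, 1 row per library, with distance in kb from the gene's end with the lower coordinate; black bars are gene spans, blue is H3K4me2, orange is H3K4me1, and paler bars are KO. Peaks at Otx2 are missing from both wild-type EB libraries of both marks, and Fgf5 has H3K4me2 beyond its far end in the 4 EB libraries.

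Fgf5 (gene 14176, chr5:98254184-98277033, plus strand, 22.9 kb) was the gene whose H3K4me2 was broader in EB than in ES cells. Within 20000 bp, H3K4me2 covered 3.09 and 2.99 kb in wild-type ES cells, 3.91 and 3.75 kb in KO ES cells, 8.34 and 11.7 kb in wild-type EB, and 5.63 and 5.14 kb in KO EB. The 4 EB values all lay above the 4 ES values, and in EB both wild-type values lay above both KO values. The mean was 3.43 ± 0.463 kb in ES cells and 7.71 ± 3.03 kb in EB (SD, n = 4 each), a difference of 4.28 kb (two-sided exact permutation p = 0.0286, the smallest that 70 assignments allow). After Benjamini-Hochberg adjustment over 17728 genes p was 0.119, which did not pass 0.05. Each n of 4 pools both genotypes, so the SD also holds genotype differences. With stage exchanged within genotype the exact permutation p was 0.0556 (adjusted p = 0.202). Such a separation with EB above ES was found at 3.99% of genes tested. Divided by the total covered length of each library and rescaled to kb, the difference was 6.55 kb (exact p = 0.0286, adjusted p = 0.0872), and without the 2 libraries of series 400-JX it was 3.04 kb. With the higher-scoring 50% of each list the difference was 1.51 kb (exact p = 0.543), and the stages overlapped there, with scores of at least 100, and within 2500 or 10000 bp.

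The H3K4me2 at Fgf5 lay in a start site and a distal site, and in 1 library also between them. The start site, chr5:98251740-98258555, had an H3K4me2 peak in all 8 libraries, as did 19.9% of 42946 sites with H3K4me2. Its rank among the peaks of its own list, by the authors' score, was at percentile 88.3 and 94.9 in wild-type ES cells, 94 and 91.3 in KO ES cells, 48.1 and 57.5 in wild-type EB, and 96.1 and 98.1 in KO EB. Thus the wild-type EB libraries ranked it lowest. Downstream of the gene, chr5:98291694-98294772, 14.7 to 17.7 kb beyond the gene's 3′ end, had an H3K4me2 peak in all 4 EB libraries and in no ES library. This pattern held at 1.36% of sites with H3K4me2. Peak widths there were 2.11 and 2.86 kb in wild-type EB and 1.31 and 1.24 kb in KO EB, with score percentiles of 70.8 and 91.7 and of 33.3 and 38.6. Both wild-type peaks were wider and ranked higher than both KO peaks. Wider wild-type peaks are common in EB. Among 7814 regions with a single peak in each H3K4me2 list, 70.1% had both wild-type EB widths above both KO EB widths. This distal site, without ES peaks, is not among those regions.

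The start peak itself differed in width. It measured 3.09 and 2.99 kb in wild-type ES cells, 3.91 and 3.75 kb in KO ES cells, 6.22 and 6.55 kb in wild-type EB, and 4.32 and 3.9 kb in KO EB. Wild-type EB peaks were the widest, and the KO and wild-type groups changed places between the stages. EB minus ES was 1.82 kb (exact p = 0.0571), and the KO effect in EB minus that in ES cells was -3.07 kb (exact p = 0.0556, the smallest that 36 assignments allow). The same order, KO above wild type in ES cells and the reverse in EB, held at 30.9% of 7814 regions with a single peak in each of the 8 lists, so it is common in these libraries. Divided by the median width over those regions in its own list, the Fgf5 peak was at ratios of 1.1 and 1.11 (wild-type ES cells), 1.22 and 1.25 (KO ES cells), 1.84 and 1.79 (wild-type EB) and 1.81 and 1.46 (KO EB). In kb, the stages overlapped, since KO EB replicate 2 at 3.9 kb lay below KO ES replicate 1 at 3.91 kb. On the ratio scale, which was chosen after the widths were seen, the 4 EB values lay above the 4 ES values (difference 0.555, exact p = 0.0286), as they did at 12.4% of regions, and the EB genotypes overlapped. The stage separation in width thus depends on this scaling.

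**Figure D2:**
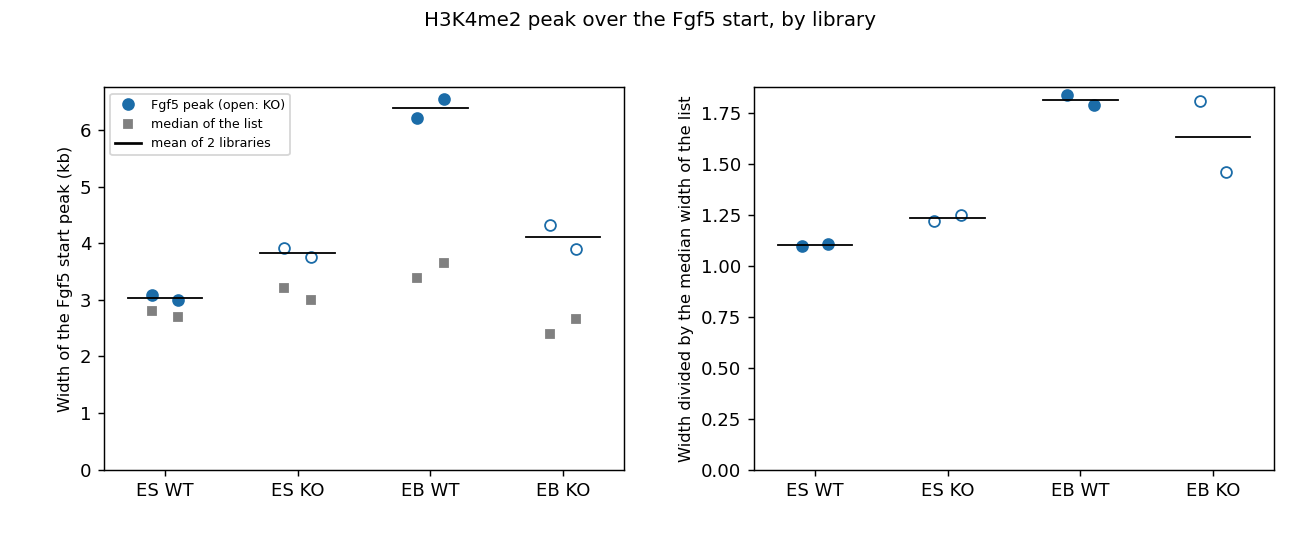
Width of the H3K4me2 peak over the Fgf5 start in the 8 libraries, in kb (left, with the median width of 7814 regions as grey squares) and divided by that median (right); filled points are wild type, open points KO, and lines are means of 2 libraries. On the left wild-type EB stands apart at 6.22 and 6.55 kb, while on the right both EB groups lie above both ES groups.

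H3K4me1 at Fgf5 separated by genotype in both stages. It covered 2.04 and 2.86 kb in wild-type ES cells, 1.92 and 0 kb in KO ES cells, 2.63 and 7.63 kb in wild-type EB, and 0.662 and 0 kb in KO EB. Both wild-type libraries exceeded both KO libraries in each stage. This order held at 13.8% of genes in ES cells, at 35.1% in EB and at 3.47% in both stages. With genotype exchanged within stage, KO minus wild type was -3.14 kb (exact p = 0.0556, the smallest possible). KO EB lists also covered less of the genome; scaled by total covered length the differences were -1.3 kb in ES cells and -4.83 kb in EB. A site 5.21 to 8.08 kb beyond the 3′ end, chr5:98282243-98285117, had H3K4me1 in both wild-type EB libraries, in KO EB replicate 1 and in no ES library. No ES library and 2 or more EB libraries was the pattern at 14.4% of 41126 sites with H3K4me1. At the start site H3K4me1 was called in 3 ES libraries and in 1 wild-type EB library. The stage difference of covered H3K4me1, 1.03 kb (exact p = 0.743, adjusted p = 0.947), was not larger than the spread, and it turned to -0.607 kb without wild-type EB replicate 2 and to -0.919 kb within 2500 bp.

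Otx2 (gene 18424, chr14:48656781-48667644, minus strand, 10.9 kb) had more peaks in ES cells than in EB. H3K4me1 within 20000 bp covered 6.98 and 5.34 kb in wild-type and 7.63 and 8.21 kb in KO ES cells, 0 and 0 kb in wild-type EB, and 1.88 and 0 kb in KO EB. All 4 ES values lay above all 4 EB values. The means were 7.04 ± 1.24 and 0.47 ± 0.94 kb, with EB minus ES at -6.57 kb (SD, n = 4 each; exact permutation p = 0.0286, the smallest possible; Benjamini-Hochberg adjusted p = 0.116 over 15800 genes). ES above EB without overlap was found at 21.5% of these genes, and EB above ES at 3.17%, which no gene of the set showed for H3K4me1.

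Most of that H3K4me1 came from 1 site at the 3′ end of Otx2, chr14:48650897-48657750. It had an H3K4me1 peak in 4 ES and 0 EB libraries, as did 6.83% of sites with H3K4me1. In the ES lists the peak was 5.31, 5.34, 5.24 and 5.87 kb wide and ranked at percentile 99, 99.3, 98 and 89.7 by the authors' score. It was thus near the top of 3 ES lists and called in no EB list. A second site upstream of the outermost start, chr14:48671197-48675331, 3.55 to 7.69 kb beyond the gene's upper end, had H3K4me1 in 3 ES libraries and in KO EB replicate 1.

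H3K4me2 at Otx2 was called at the same sites, and its EB calls separated by genotype. Within 20000 bp it covered 10.3 and 8.9 kb in wild-type ES cells, 0 and 10 kb in KO ES cells, 0 and 0 kb in wild-type EB, and 6.06 and 4.3 kb in KO EB. Both KO EB libraries had peaks where neither wild-type EB library did, and the KO ES libraries disagreed with each other. At the 3′ site, H3K4me2 peaks in KO EB were 3.17 and 4.3 kb wide and ranked low, at percentile 33.3 and 18.1. Otx2 was the 1 gene of the set with both KO EB libraries above both wild-type ones in covered H3K4me2, which 5.92% of genes showed. KO minus wild type in EB was 5.18 kb (exact p = 0.333, the smallest that 2 against 2 libraries allow), and 7.82 kb after scaling by total covered length. EB minus ES was -4.71 kb (exact p = 0.229, adjusted p = 0.437) and was not larger than the spread. In ES cells KO minus wild type was -4.58 kb, and -9.59 kb without the series 400-JX library, which was the KO library with the peaks. It turned to 0.431 kb without KO ES replicate 1, which had none, and to 1.15 kb with the higher-scoring 50% of each list, so its direction rests on that library.

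Pou3f1 (gene 18991, chr4:124657646-124660655, 3.01 kb) has 3 sites in its window, which also ends near Utp11, 17.6 kb away. The site over the gene, chr4:124655051-124662037, had H3K4me2 in all 4 ES libraries, 0 wild-type EB and 2 KO EB libraries. Peaks there were 4.93 and 4.39 kb wide in wild-type and 6.99 and 5 kb in KO ES cells, at percentiles 76.3, 73.5, 40 and 88.4. In KO EB they were 3.9 and 4.3 kb wide at percentiles 2.13 and 6.35, which is close to the bottom of those lists. H3K4me2 called in both KO and neither wild-type EB library occurred at 1.32% of sites with H3K4me2; the site over Pou3f1 and the 3′ site of Otx2 were the 2 of the 16 sites that had it.

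At a site beyond the gene's lower-coordinate end, chr4:124644416-124649622, 8.02 to 13.2 kb away, the marks differed by stage. H3K4me1 was called in 4 ES libraries, with widths of 4.67, 4.37, 3.92 and 4.67 kb, and in no EB library. H3K4me2 was called in 1 ES library, wild-type replicate 2, and in 3 EB libraries, with widths of 4.85 kb in wild-type replicate 2 and 3.33 and 2.64 kb in KO. This combination, chosen after its values were seen, occurred at 29 sites, or 0.0705% of those with H3K4me1. The H3K4me2 peaks ranked low, at percentile 11.1 in the ES library and 18.1, 23.2 and 6.4 in the EB libraries, all below the median of their lists.

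Summed over the window, H3K4me2 at Pou3f1 covered 6.9 and 8.5 kb in wild-type ES cells, 10.9 and 7.54 kb in KO ES cells, 0 and 8.98 kb in wild-type EB, and 8.89 and 6.94 kb in KO EB. Replicate 1 of wild-type EB had no peak at all and replicate 2, of series 400-JX, had as much as ES cells, so the stages and genotypes overlapped. EB minus ES was -2.26 kb (exact p = 0.486, adjusted p = 0.67), and 0.989 kb after scaling by total covered length. H3K4me1 covered 5.7 and 5.42 kb in wild-type and 3.92 and 4.67 kb in KO ES cells, 5.14 and 0 kb in wild-type EB, and 2.94 and 0 kb in KO EB. In ES cells both wild-type values were above both KO values, and in EB 1 library of each genotype had none. EB minus ES was -2.9 kb (exact p = 0.0857, adjusted p = 0.274).

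Sox3 (gene 20675, chrX:60891366-60893430, 2.06 kb) had the 2 marks at different places and stages. H3K4me2 lay over the gene, at chrX:60890548-60895580, and covered 3.33 and 2.77 kb in wild-type ES cells, 4.5 and 4.59 kb in KO ES cells, 0 and 0 kb in wild-type EB, and 2.29 and 0 kb in KO EB. The 4 ES values lay above the 4 EB values, and within ES cells both KO values lay above both wild-type values. The means were 3.8 ± 0.895 and 0.574 ± 1.15 kb, with EB minus ES at -3.22 kb (SD, n = 4 each; exact p = 0.0286, adjusted p = 0.119). ES above EB without overlap was found at 20% of genes for H3K4me2, and after scaling by total covered length the groups overlapped (-2.26 kb, exact p = 0.143). H3K4me2 in 4 ES and at most 1 EB libraries occurred at 14.7% of sites.

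H3K4me1 was called on both sides of the Sox3 gene in wild-type EB and nowhere else. The flanks, chrX:60888038-60889459 and chrX:60895915-60899213, had peaks in both wild-type EB libraries and in none of the other 6, as did 5.36% of sites with H3K4me1. On the lower-coordinate side the peaks were 1.08 and 0.941 kb wide at percentiles 5.14 and 41.2, and on the other side 3.17 and 1.66 kb wide at percentiles 73 and 35.3. Covered H3K4me1 was 4.25 and 2.6 kb in wild-type EB and 0 kb in the other 6 libraries. KO minus wild type in EB was -3.43 kb (exact p = 0.333, the smallest possible). The KO EB lists were also the shortest for this mark, with 8943 and 5990 peaks against 14082 and 13260 in wild type. When every list was cut to the length of the shortest H3K4me1 list, or to peaks scoring at least 100, Sox3 no longer had this call.

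Zic5 (gene 65100, chr14:122459160-122465658, minus strand, 6.5 kb) and Zic2 (gene 22772, chr14:122475384-122480328, 4.95 kb) lie 9.72 kb apart, so their windows overlap. They share H3K4me1 peaks and are not separate evidence for that mark. Most H3K4me2 covered length came from a different site for each gene. Pcca lies 4.04 kb beyond Zic2. Over both gene bodies and within 2500 bp of them, no H3K4me2 peak was called in any of the 8 libraries. The most widely called site was chr14:122448167-122456003, 3.16 to 11 kb beyond the 3′ end of Zic5, with H3K4me2 in all 8 and H3K4me1 in 7 libraries, KO EB replicate 2 being the exception. Its H3K4me2 peak was 6.55 and 6.46 kb wide in wild-type ES cells, 7.74 and 6.57 kb in KO ES cells, 6.25 and 6.59 kb in wild-type EB, and 2.94 and 3.44 kb in KO EB. Both KO EB peaks were narrower than the other 6. Narrower KO peaks are common in EB: 70.1% of the 7814 single-peak regions had both KO EB widths below both wild-type ones. Score ranks at this site ran the other way. The KO EB peaks were at percentiles 61.7 and 60.2, above the wild-type EB peaks at 6.47 and 38.2. The ES peaks were at 57.7 and 62.9 (wild type) and at 26.5 and 65.7 (KO). Inside the Zic5 gene span, chr14:122459553-122463984 held H3K4me1 without H3K4me2, in 4 ES libraries and in replicate 1 of wild-type and of KO EB. Beyond Zic2, chr14:122489065-122492017 held H3K4me2 without H3K4me1 in 7 libraries, all but wild-type EB replicate 1. This site lies 8.74 to 11.7 kb from Zic2, past the near end of Pcca. Most of the H3K4me2 covered length given for Zic2 comes from it.

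For Zic5, H3K4me2 covered 6.55 and 6.46 kb in wild-type ES cells, 7.74 and 6.57 kb in KO ES cells, 6.25 and 6.59 kb in wild-type EB, and 2.94 and 3.44 kb in KO EB. EB minus ES was -2.03 kb (exact p = 0.114, adjusted p = 0.293), and 0.154 kb after scaling by total covered length. H3K4me1 covered 7.87 and 7.68 kb in wild-type and 14.7 and 10.5 kb in KO ES cells, 11.1 and 6.73 kb in wild-type EB, and 3.26 and 0 kb in KO EB. KO was above wild type in ES cells and below it in EB for both marks, without overlap. For H3K4me1 the KO effect in EB minus that in ES cells was -12.1 kb (exact p = 0.0556, the smallest possible), an order found at 4.65% of genes. For H3K4me2 it was -3.88 kb (exact p = 0.0556), and that order, which Fgf5 also had (-5.44 kb, exact p = 0.0556), was found at 25.6%. Scaled by total covered length, the H3K4me2 KO difference in ES cells turned to -0.861 kb at Zic5 and -0.0401 kb at Fgf5, so the opposed directions were lost.

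For Zic2, H3K4me2 covered 2.06 and 1.44 kb in wild-type ES cells, 2.59 and 2.28 kb in KO ES cells, 0 and 3.5 kb in wild-type EB, and 1.95 and 2.33 kb in KO EB. It was the gene with the least H3K4me2 in wild-type ES cells, and its stages overlapped (EB minus ES -0.148 kb, exact p = 0.829, adjusted p = 0.935; 0.713 kb after scaling). H3K4me1 covered 2.25 and 2.73 kb in wild-type and 8.68 and 3.72 kb in KO ES cells, 4.91 and 0.196 kb in wild-type EB, and 1.41 and 0 kb in KO EB. The highest value came from a peak of 6.78 kb at chr14:122479417-122486196, called in KO ES replicate 1 alone.

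**Figure D3:**
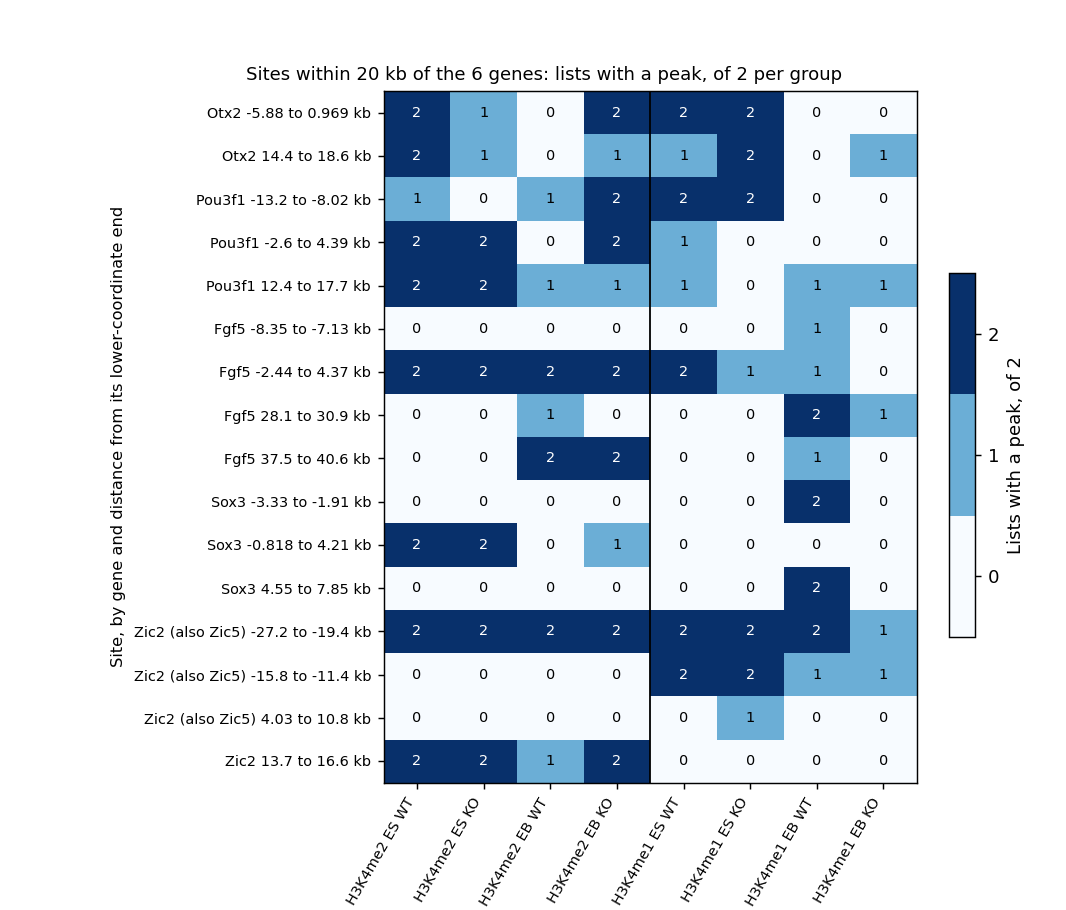
Number of libraries, of 2 per group, with a peak at each of the 16 sites (rows, named by gene and distance in kb from its end with the lower coordinate) for each mark, stage and genotype (columns). Sox3 holds H3K4me2 in ES cells at the middle site and H3K4me1 in wild-type EB at both flanking sites, and Fgf5 holds the site with H3K4me2 in EB only.

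Across the 6 genes, H3K4me2 calls in 1 stage alone were all on the ES side in wild type. Within 2500 bp, 3 of 6 genes (Otx2, Pou3f1 and Sox3) had H3K4me2 in both wild-type ES and no wild-type EB library, against 4.35% of all genes, and 0 the reverse, against 2.71%. In KO cells 0 of 6 had the first pattern, against 7.05%. For H3K4me1, Otx2 had it in wild type (8.17% of genes) and in KO (11.2%), and Sox3 alone had the reverse in wild type (4.75%). Fgf5 had H3K4me2 within 2500 bp in all 8 libraries (42% of genes), and Zic2 and Zic5 in none (27.3%).

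Between genotypes, H3K4me2 in EB was called in both KO and neither wild-type library at 2 of 6 genes, Otx2 and Pou3f1, against 1.81% of genes, and at 0 in the reverse, against 1.7%. Of the 6 neuroectoderm markers listed, Lhx2 and En2 had the same KO-only H3K4me2 call in EB within 2500 bp. Within 20000 bp Pax6, Sox1 and En2 had it (1.29% of genes), and of the set described here Otx2 had it and Pou3f1 did not. En2 alone of the markers had it at both windows, and Nes and Hes3 had it at neither. The part of these markers in the calls at Otx2 and Pou3f1 was not tested. In ES cells 0 of 6 had a call in KO alone (2.03%) or in wild type alone (1.08%); the latter was 1, Otx2, with equal list lengths or without KO ES replicate 2. For H3K4me1, 1 of 6, Sox3, was wild-type-only in EB (5.62%) and 0 KO-only (0.9%), and in ES cells 0 were wild-type-only (1.99%) and 0 KO-only (1.63%). These counts of 0 in ES cells also moved. The wild-type-only count was 1 without wild-type ES replicate 1 (Pou3f1) or KO ES replicate 1 (Fgf5). The KO-only count was 1 with the higher-scoring 50%, scores of at least 100 or equal list lengths (Zic5), and without KO ES replicate 2 (Zic2). The 2 H3K4me2 calls in KO EB rest on low-ranked peaks: both were gone with the higher-scoring 50% of each list.

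Covered length gave counts that mostly followed the lists as a whole. In ES cells both KO libraries exceeded both wild-type libraries in H3K4me2 at 4 of 6 genes (Fgf5, Sox3, Zic2 and Zic5), against 47.3% of genes, and the reverse held at 0, against 7.24%. In EB wild type exceeded KO at 2 of 6 (Fgf5 and Zic5), against 55%. For H3K4me1 in ES cells, KO exceeded wild type at 3 (Otx2, Zic2 and Zic5; 17.3% of genes) and wild type exceeded KO at 2 (Pou3f1 and Fgf5; 13.8%). In EB wild type exceeded KO in H3K4me1 at 3 (Fgf5, Sox3 and Zic5; 35.1%) and KO exceeded wild type at 0 (6.17%). With 2 libraries against 2 the smallest exact p is 0.333, so none of these can be called.

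**Figure D4:**
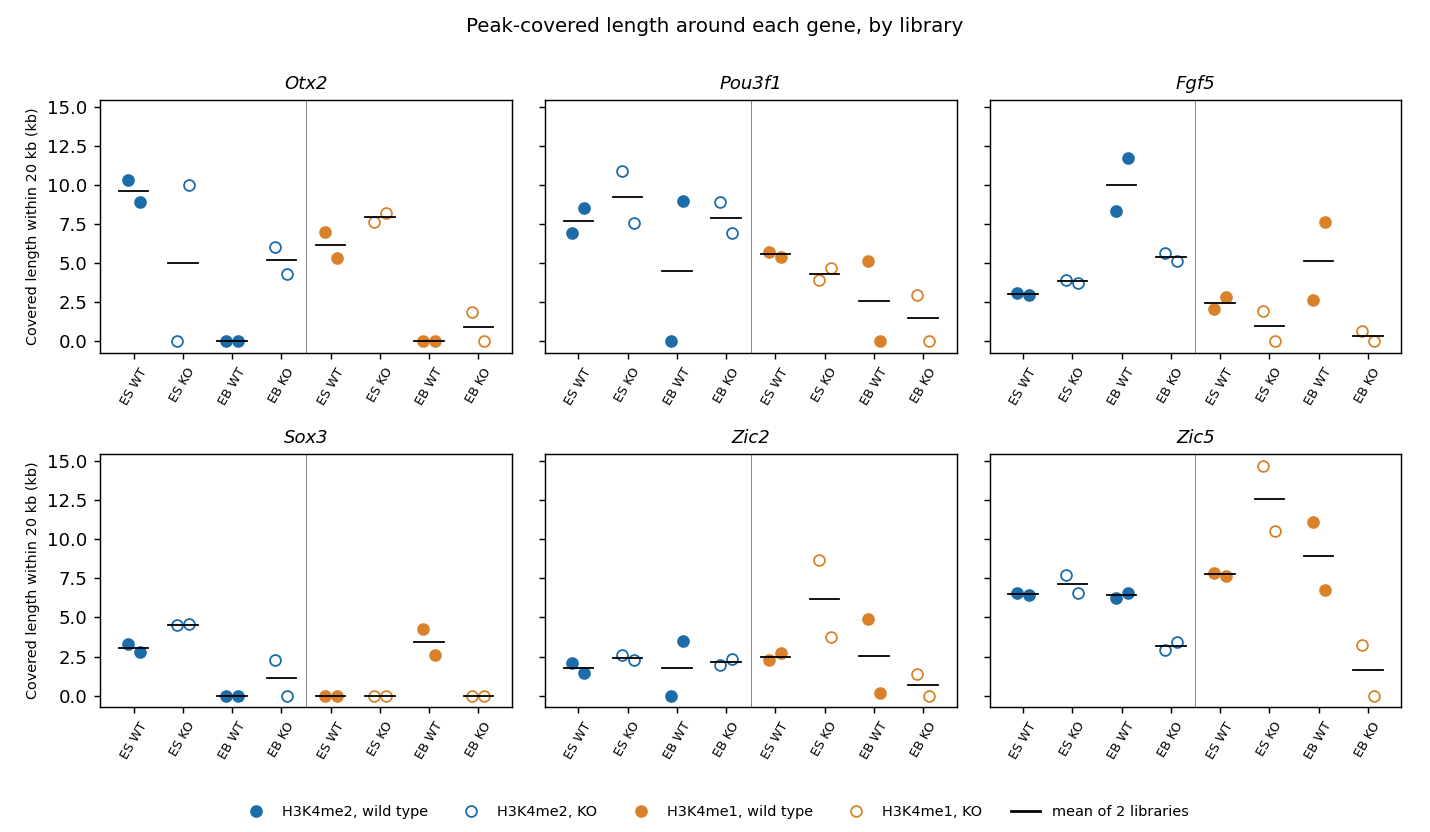
Kb under a peak within 20 kb of each gene, for each library (points; filled wild type, open KO; blue H3K4me2, orange H3K4me1) with the mean of 2 libraries as a line. Fgf5 H3K4me2 is highest in wild-type EB at 8.34 and 11.7 kb, and Otx2 is at 0 kb in wild-type EB for both marks.

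For the stage comparison, the adjusted p was under 0.05 for 0 of the 6 genes and for 0% of all genes in either mark. The smallest adjusted p was 0.119 for H3K4me2 and 0.116 for H3K4me1, while 4250 and 3902 genes had an unadjusted exact p under 0.05. With 70 assignments the exact p cannot fall below 0.0286, so an adjusted p under 0.05 would need most genes at that value. The count of 0 is therefore not read as equal stages. The median EB minus ES difference was -0.857 kb over 17728 genes for H3K4me2 and -2.14 kb over the 6 genes, and for H3K4me1 -0.825 kb over 15800 genes and -2.81 kb over the 6. Fgf5 and Zic2 were above the median of all genes in H3K4me2, Fgf5 and Sox3 were above it in H3K4me1, and the other 4 genes were below. Scaled by total covered length, the H3K4me2 medians were 0.602 kb over all genes and 0.433 kb over the 6, with 4 of 6 differences above 0 and 3 above the median of all genes. The H3K4me1 medians were then -0.33 and -1.7 kb. The windows of Zic2 and Zic5 overlap and share peaks, mainly of H3K4me1, so the 6 values are not all separate.

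**Figure D5:**
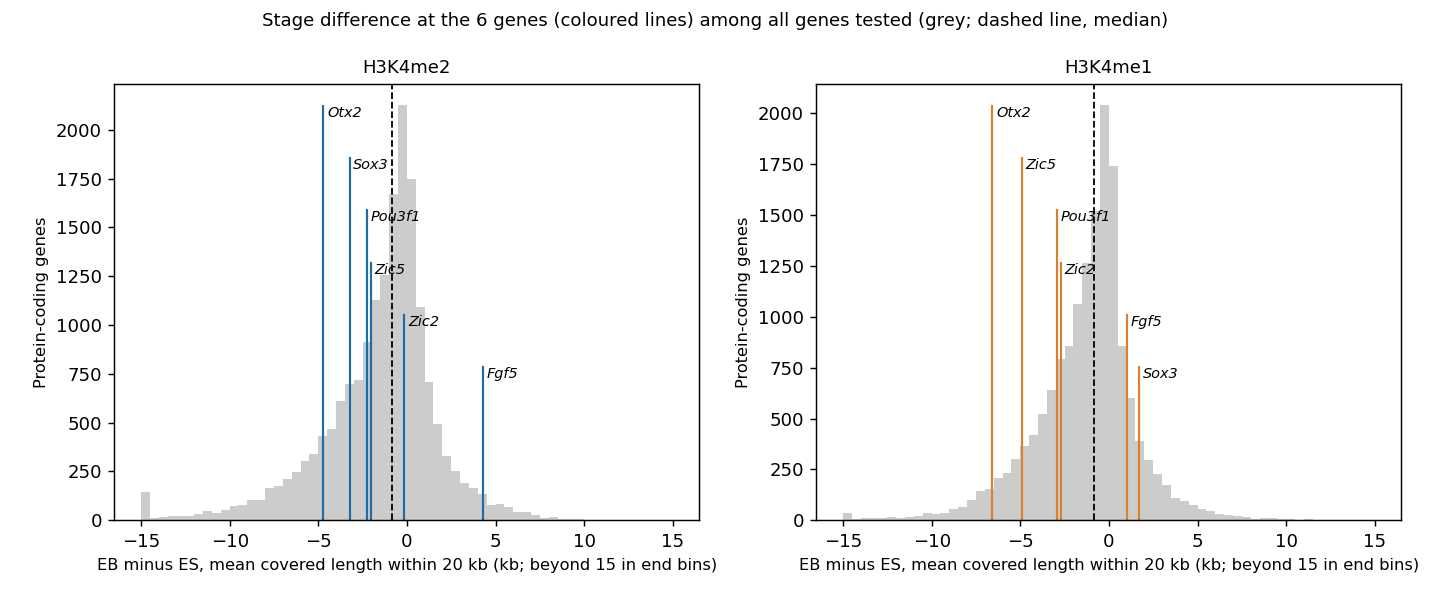
EB minus ES difference in mean covered length (kb) for all genes tested (grey histogram, 17728 genes for H3K4me2 and 15800 for H3K4me1), with the 6 genes as coloured lines and the median as a dashed line. Fgf5 is at 4.28 kb on the H3K4me2 side and Otx2 at -6.57 kb on the H3K4me1 side.

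Other genes of the epiblast were read from a list of 18. Dnmt3l and the factor gene Tcf15 had H3K4me2 within 2500 bp in wild-type EB alone (2.71% of all genes). In wild-type ES cells alone 0 of 18 had it (4.35%). In EB, Utf1 and Tdgf1 were KO-only (1.81% of all genes) and Dnmt3l was wild-type-only (1.7%). For H3K4me1, Dnmt3b and Sall2 had calls in wild-type ES cells alone (8.17%), and Lef1 and Tcf15 in wild-type EB alone (4.75%). Dnmt3b was KO-only in EB for that mark (0.9%). The median EB minus ES difference of the 18 was -0.681 kb for H3K4me2 and -1.15 kb for H3K4me1. The 3 wild-type ES-only calls of Otx2, Pou3f1 and Sox3 had no counterpart among the 18. A count of 0 of 18 is near the share of 4.35%, so no contrast is read from it. In KO, Lef1 had H3K4me2 within 2500 bp in ES cells alone (7.05% of all genes). The reverse, H3K4me2 in KO EB alone, was found at Tcf15, Utf1, Etv4 and Tdgf1 (3.2%). H3K4me1 was called in KO ES cells alone at Foxd3 (11.2%) and in KO EB alone at Dnmt3a and Tcf15 (2.17%). Dnmt3a was wild-type-only in ES cells for H3K4me1 (1.99%).

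Among 14 naive pluripotency genes, the markers of the ES label, Tcl1 alone had H3K4me2 in wild-type ES cells only (4.35% of all genes). Klf2, Klf5, Prdm14 and Fgf4 had it in EB and not in ES cells, both in wild type (2.71%) and in KO (3.2%). For H3K4me1, Zfp42, Tcl1 and Dppa3 were called in wild-type ES cells only (8.17%), and Prdm14 and Nanog in wild-type EB only (4.75%). The naive list thus held calls in either stage. Klf2, Klf5, Tbx3, Prdm14, Nanog and Fgf4 had no H3K4me2 peak within 2500 bp in any ES library, as was so for 31.7% of all genes. Its median EB minus ES difference was -2.09 kb over 13 genes with an H3K4me2 peak and -2.17 kb over 11 with H3K4me1.

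Markers of other cell types were called in both stages. H3K4me2 was found within 2500 bp in all 4 ES libraries at 4 of 8 fibroblast or feeder genes (Col1a1, Col1a2, Thy1 and Twist2), at 5 of 6 primitive endoderm genes, at 2 of 6 neuroectoderm genes and at 3 of 6 mesoderm genes. In all 4 EB libraries it was found at 4, 3, 1 and 1 of them. Over all genes the shares were 53.2% in ES cells and 47.2% in EB. Apart from the endoderm genes in ES cells, these counts are near or below those shares. In wild-type ES cells alone H3K4me2 was found at Gata4 of the endoderm list and at Pax6 and Lhx2 of the neuroectoderm list (4.35% of all genes). Their median EB minus ES differences in H3K4me2 were -0.00812 kb for fibroblast, -2.19 kb for endoderm, -1.73 kb for neuroectoderm and -0.658 kb for mesoderm genes, and in H3K4me1 0.716, -0.222, -1.41 and -0.963 kb. The part of other cell types in the values at the 6 genes was not tested, and in bulk peak lists fewer cells with a mark and less mark per cell cannot be told apart.

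Genes with the most similar profile were found from the Pearson correlation of log2(covered kb + 1) over the 16 libraries, among genes more than 1 Mb away. It is a description, since all genes share the differences between libraries in mark and list length. Fgf5 was most like Hs3st5 (r = 0.93), Dpp4 and Snx19 (both 0.91). Otx2 was most like Polr2a and Rbm28 (both 0.87) and 2310009B15Rik (0.85), Pou3f1 like Cd63 (0.95), Gstt2 (0.90) and Lamb1 (0.89), and Sox3 like Mab21l1 (0.95), Nyap1 (0.93) and Malrd1 (0.90). Zic5 was most like Stk39 and Adamts14 (both 0.92) and Ahi1 (0.91), and Zic2 like Brca1 and Gimap8 (both 0.81) and Iqschfp (0.80). No gene of the set was among these 3 for another; Zic2 and Zic5 were too close to be compared.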

How the data were processed

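The deposited lists held 1 peak per line with chromosome, start, end, name and a score, called per library. The score is the authors' own as deposited, with its unit not given in the sources used here, so here it serves for ranks and filters inside 1 list. The submitters' processing notes name build mm10 and, without their roles, MACS2, Bowtie2, HOMER 4.10, SAMtools 1.5, deepTools and bedtools. For depth, duplicates and control libraries the sources used here give nothing. Only autosomes 1 to 19 and the sex chromosomes X and Y were used, and 1 peak of each list fell outside them.

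From these, scripts (Python 3.11.15, numpy 2.4.6, pandas 2.3.3) computed peak presence and covered length around RefSeq genes of GRCm38.p6 (coordinates of mm10; strand, exons and UTRs are not in that table; strands come from the promoter table). Windows were 2500 and 20000 bp around the gene span, and 1 bp of overlap counted. Differences of means were tested with two-sided exact permutation tests over libraries, with 70 assignments for stage, 6 for genotype within a stage and 36 with stage as a stratum, Benjamini-Hochberg adjusted over all genes with a peak. Calls in 1 group alone were set against the share of all genes with the same call. The procedure was tested on simulated data. The members and lists were chosen with earlier results of these data known. Named genes are the members, list genes with a call in 1 group alone, neighbours within 20000 bp and the 3 genes most like each member; other list genes and the sites were picked with their values in view. Same-numbered libraries did not deviate together (correlations of -0.09 to 0.06 over 12 pairs), so replicate numbers were not treated as pairs. Alternatives were other windows, score filters, equal list lengths, scaling by total covered length, peak numbers, each library left out, the 400-JX series left out, genotype strata, a replicate block and merging across 1000 bp. Scaling of the Fgf5 width was added after seeing the data.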

Additional observations from a re-analysis of the deposited data

Results flagged for a closer look

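The KO effect, KO minus wild type, pointed in opposite directions at the 2 stages for 4 values, with every KO library above every wild-type library in ES cells and below in EB. For Fgf5 H3K4me2 covered length the effect in EB minus that in ES cells was -5.44 kb, from 0.79 kb in ES cells to -4.65 kb in EB. For the width of the Fgf5 start peak it was -3.07 kb. At Zic5 it was -3.88 kb for H3K4me2 and -12.1 kb for H3K4me1. Each had an exact permutation p of 0.0556, the smallest that 36 assignments allow, so the design cannot pass 0.05. The order by which these values were picked fixes that p, so it adds no support. In ES cells the Fgf5 covered length and start peak width are the same values, so those 2 results are not separate. KO ES lists covered more and KO EB lists less H3K4me2 than wild type. In H3K4me2 the same opposed order held at 25.6% of genes and at 30.9% of regions with a single peak, and in H3K4me1 at 4.65% of genes. Scaled by total covered length, the H3K4me2 KO effect in ES cells was -0.0401 kb at Fgf5 and -0.861 kb at Zic5, so the directions were no longer opposed. After scaling, the Fgf5 width no longer separated the genotypes in EB (difference of effects -0.313, exact p = 0.111). Zic5 H3K4me1 kept its directions after scaling by total covered length, at 3.37 kb in ES cells and -6.08 kb in EB, but its EB effect was 1.63 kb with the higher-scoring 50% of each list or equal list lengths, and 0 kb with scores of at least 100.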

How the results depend on the processing

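Of 150 stage values under alternatives other than leaving out a library, 136 kept their direction, 8 were 0 and 6 reversed, and none passed the threshold; of 276 genotype values, 206 kept their direction, 37 became 0, 11 had been 0 from the start and 22 turned, 13 of them where the libraries overlapped. The cause was not tested. Among these 13, KO minus wild type in H3K4me2 became 1.15 kb at Otx2 in ES cells, -2.39 to -0.489 kb at Pou3f1 in ES cells (5 settings) and -2.56 and -0.584 kb at Zic2 in EB, and in H3K4me1 in EB 0.055 to 1.47 kb at Pou3f1 and 0.707 kb at Zic2. Leaving out a library turned 7 of 96 genotype values, among them Otx2 in ES cells (0.431 kb) and Pou3f1 in ES cells (-0.166 kb) and EB (-1.06 kb) in H3K4me2. Scaled by total covered length, EB minus ES in H3K4me2 became 0.989 kb at Pou3f1, 0.713 kb at Zic2 and 0.154 kb at Zic5, and KO minus wild type in ES cells -0.0401 kb at Fgf5 and -0.861 kb at Zic5. With 10000 bp, Zic2 H3K4me2 EB minus ES was 0.273 kb, and with 2500 bp Fgf5 H3K4me1 was -0.919 kb. With scores of at least 100, Fgf5 H3K4me1 EB minus ES was -1.35 kb, Otx2 H3K4me1 KO minus wild type in ES cells -0.604 kb and Zic5 H3K4me2 -3.22 kb, the last also with the higher-scoring 50% and equal list lengths. With the higher-scoring 50%, KO minus wild type in EB at Zic5 was 3.19 kb for H3K4me2 and 1.63 kb for H3K4me1, the latter also with equal list lengths. Leaving out a library, Zic2 H3K4me2 ranged from -0.666 to 0.501 kb (0.0185 kb without KO ES replicate 1, 0.501 kb without wild-type EB replicate 1) and Fgf5 H3K4me1 from -0.607 kb (without wild-type EB replicate 2) to 1.94 kb; Fgf5 H3K4me2 ranged from 2.94 to 5.13 kb.

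Counts of genes also moved. H3K4me2 with 4 ES above 4 EB, 1 gene in the report, was 2 with 2500 bp, the higher-scoring 50%, scores of at least 100 or without the 400-JX series, 3 with 50000 bp, and 0 by peak number or scaled; leaving out a library it was 1 to 2 (2 without KO ES replicate 1 or wild-type EB replicate 2). EB above ES, 1 gene, was 0 with 2500 bp, 10000 bp, the higher-scoring 50% or scores of at least 100. H3K4me1 with ES above EB, 1 gene, was 0 over the gene span and by peak number, 2 with 10000 bp, and 1 to 4 leaving out a library (4 without wild-type EB replicate 1). H3K4me2 KO-only in EB, 2 genes, was 1 with 10000 bp, 20000 bp or equal list lengths, and 0 with 50000 bp, the higher-scoring 50% or scores of at least 100. H3K4me2 ES-only in wild type, 3 genes, was 2 with 10000 or 20000 bp (Otx2 and Sox3) and 1 with 50000 bp (Sox3). It was also 2 (Pou3f1 and Sox3) over the gene span, with the higher-scoring 50% or at least 50% of the peak in the window. H3K4me1 wild-type-only in EB and EB-only in wild type, 1 gene each, were both 0 over the gene span, with the higher-scoring 50%, scores of at least 100, equal list lengths or at least 50% of the peak in the window; the first was 1 to 2 leaving out a library (2 without wild-type EB replicate 1). H3K4me1 ES-only in wild type, 1 gene, was 0 over the gene span or with at least 50% of the peak in the window, 2 with the higher-scoring 50%, scores of at least 100 or equal list lengths, and 1 to 2 leaving out a library (2 without wild-type ES replicate 1 or either wild-type EB replicate).

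With the replicate number as a block, exact p was 0.125 for Fgf5 (4.28 kb) and Sox3 (-3.22 kb) in H3K4me2. It was also 0.125 for Otx2 (-6.57 kb) in H3K4me1. This is the smallest p that the block allows and lies above the threshold, so the block could not change a call and does not test the calls. With stage exchanged within genotype, the exact permutation p was 0.0556 for Fgf5 and Sox3 in H3K4me2. Without the added scaling the Fgf5 width difference was 1.82 kb, and with it 0.555 list medians. With sites merged across gaps of up to 1000 bp, the sites named for a pattern kept it, and the upper Sox3 flank joined the site over the gene.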
